A study of Arabidopsis thaliana with 6 samples.

Results

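Intergenic long noncoding RNAs (lncRNAs) of Arabidopsis thaliana were followed in RNA sequencing libraries of the cdc5 mutant and of the wild type Col-0. They were taken as the transcripts typed lncRNA whose span overlaps that of no other gene of the deposited transcript table on either strand. This gave 837 transcripts of 775 genes, out of 2182 lncRNA transcripts and 45666 transcripts in all. The data were 3 cdc5 libraries and 3 Col-0 libraries, all labelled as rosette leaves and with no treatment, age or allele in their labels. The titles of the mutant libraries end in a number that was read as a replicate but could also name an allele, so that the cdc5 spread may be one between alleles. The labels do not say whether the libraries of a genotype came from different plants. The tests below therefore speak to the scatter among these libraries, which may be no more than technical.

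A lncRNA is an RNA without a long open reading frame. Intergenic ones are transcribed from their own promoters between protein-coding genes, and like messenger RNAs most of those known are capped, polyadenylated and sometimes spliced. In plants such RNAs are typically scarce, and they are known as precursors of small RNAs, as decoys of microRNAs and as regulators of neighbouring genes. CDC5 is a MYB-related DNA-binding protein and a core member of the MOS4-associated complex, which accompanies the spliceosome and takes part in the production of microRNAs from their RNA polymerase II transcripts. According to its title the series is about CDC5 and the floral transition. The comparison described here asks which RNAs from between the genes differ in level when CDC5 is reduced.

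The CDC5 transcript had 21.8, 21.3 and 21.0 FPKM (fragments per unit of transcript length and of library size) in the cdc5 libraries, against 38.2, 37.0 and 36.1 FPKM in the Col-0 libraries. Depth, estimated from the steps between low values, was 20.0 to 25.6 M fragments in cdc5 and 19.2 to 23.8 M in Col-0. At these depths 3 fragments over a lncRNA of median length, 331 bases, correspond to 0.354 to 0.472 FPKM. The labelled tissue was checked against marker genes. The 6 leaf markers summed to 10910 to 11160 FPKM in cdc5 and 9524 to 11120 FPKM in Col-0, but the 10 markers of flower, tapetum and pollen were also abundant in every library, at 3067 to 3101 FPKM in cdc5 and 3564 to 3895 FPKM in Col-0. None of these 10 rose and 6 fell in cdc5, and their median log2 fold change was -0.20 (limma adjusted p under 0.05, 1 higher and 4 lower under cyclic loess scaling). Among all genes tested 33.3% rose and 22.4% fell, and of the 6 leaf markers 3 rose and 1 fell. The floral markers TT4, MS2, AP1 and SEP3 did not pass the test. PGA3, a pollen polygalacturonase with the largest change of the 10, had 94.8 ± 1.65 FPKM in cdc5 and 163.1 ± 4.71 FPKM in Col-0 (SD, n = 3 each). RNA of floral marker genes was thus present in every library, at a lower sum in each cdc5 library, and its part in the differences below was not tested. Fewer cells of a type and less RNA per cell cannot be told apart in such samples.

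The word intergenic holds only for the genes that the table lists. All 837 transcripts have the span and spliced length of a transcript in the TAIR10.1 RefSeq annotation, and in that annotation 215 of them (25.7%) lie over a gene that is not in the table and was not analysed here. Of these, 59 lie over a protein-coding gene, 34 over a pseudogene and 124 over another RNA gene, and 184 of the 215 meet it on the opposite strand only. Library preparation marked the strand, but the sources used here do not say whether the authors assigned fragments by strand, so reads from such a pair cannot be assigned with certainty. The transcripts were spread over all chromosomes, with 232, 167, 158, 111 and 169 on chromosomes 1 to 5, and lay equally on the plus (420) and minus (417) strands. A single exon made up 686 of them (82.0%).

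The longest run of codons from an ATG to a stop had a median of 29 codons, and 28 of the 837 RNAs held a run of at least 100. To show what such an RNA looks like, 3 short ones that passed the test below are printed whole, 5′ to 3′, in TAIR10.1, with the longest ATG-to-stop frame in capitals. AT5G06765.1 (chr5:18619016-18619295, minus strand) and AT2G05045.1 (chr2:2858309-2858550, plus strand) fell in cdc5, and AT1G09753.1 (chr1:29208882-29209127, plus strand) rose. Their frames run over 54, 36 and 11 codons. A frame that runs from an ATG to the end of the RNA without a stop was not counted, here or in the median and count above. In AT5G06765.1 and AT2G05045.1 such an open frame is longer than the one in capitals.
AT5G06765.1: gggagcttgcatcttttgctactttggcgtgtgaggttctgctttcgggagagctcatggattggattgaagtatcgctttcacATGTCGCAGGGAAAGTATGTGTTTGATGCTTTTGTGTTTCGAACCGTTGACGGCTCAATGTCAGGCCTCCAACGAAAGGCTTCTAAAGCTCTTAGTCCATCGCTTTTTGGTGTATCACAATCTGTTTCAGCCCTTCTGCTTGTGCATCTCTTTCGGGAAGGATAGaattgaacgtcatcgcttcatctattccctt
AT2G05045.1: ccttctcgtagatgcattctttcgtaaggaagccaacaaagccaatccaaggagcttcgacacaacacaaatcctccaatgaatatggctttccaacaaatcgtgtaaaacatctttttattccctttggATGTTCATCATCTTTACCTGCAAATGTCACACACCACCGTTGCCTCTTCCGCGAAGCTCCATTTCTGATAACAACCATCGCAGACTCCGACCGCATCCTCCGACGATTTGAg
AT1G09753.1: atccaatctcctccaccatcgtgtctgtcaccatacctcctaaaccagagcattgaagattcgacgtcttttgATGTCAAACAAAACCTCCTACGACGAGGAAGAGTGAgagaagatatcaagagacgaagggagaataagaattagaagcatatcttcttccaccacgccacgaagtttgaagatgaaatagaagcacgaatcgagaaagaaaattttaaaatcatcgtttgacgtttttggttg

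Intergenic lncRNAs were scarce. Their median level, as a mean over the 6 libraries, was 0.0651 FPKM (quartiles 0.0224 and 0.30), against 0.453 FPKM for the 1345 lncRNAs that overlap another gene and 2.02 FPKM for the 32836 protein-coding transcripts that overlap none. A mean of at least 1 FPKM was reached by 9.08% of the intergenic lncRNAs, 31.2% of the overlapping lncRNAs and 61.1% of the protein-coding transcripts. In numbers, 487 of the 837 lay under 0.1 FPKM, 117 between 0.1 and 0.25, 157 between 0.25 and 1, 65 between 1 and 5, and 11 at 5 FPKM or more. Only 218 (26.0%) were listed above 0 in all 6 libraries, and 254 (30.3%) were above 0 in a single library. Since most values correspond to less than 3 fragments, a value of 0 here means not detected at this depth.

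**Figure D1:**
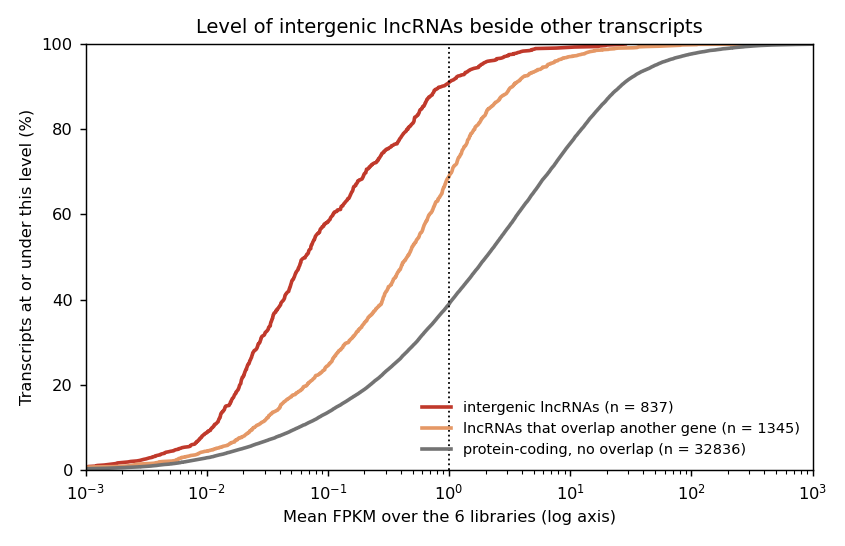
Share of transcripts (percent, vertical axis) at or under a given mean FPKM over the 6 libraries (horizontal axis, log scale) for intergenic lncRNAs, lncRNAs that overlap another gene, and protein-coding transcripts without overlap. The dotted line marks 1 FPKM, which 9.08% of the intergenic lncRNAs reach, against 31.2% and 61.1% of the other classes.

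The class as a whole did not separate the genotypes. Its FPKM summed to 402.1, 392.3 and 414.1 in the cdc5 libraries and to 412.2, 455.4 and 440.8 in the Col-0 libraries, which is 0.0653% to 0.0721% of all FPKM in a library. The cdc5 and Col-0 ranges overlapped. The log2 difference of cdc5 from Col-0 was -0.11 (two-sided exact permutation test p = 0.2, n = 3 each, where 0.1 is the smallest p possible). The number listed above 0 was 462, 475 and 396 in cdc5 and 472, 431 and 448 in Col-0 (difference of means -6.0, exact permutation p = 0.9, n = 3 each). That difference changes sign without the third cdc5 library, the one with the lowest depth of its genotype, to 18.2, and without the first Col-0 library, the deepest of its genotype, to 4.83. At least 1 FPKM was reached by 83, 80 and 86 intergenic lncRNAs in cdc5 and by 78, 76 and 80 in Col-0 (exact permutation p = 0.2, n = 3 each).

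A few RNAs carried much of this sum. The 6 with the highest mean, AT4G04077.1, AT1G07323.1, AT2G19572.1, AT4G38932.1, AT3G05945.1 and AT2G24592.1, held 29.1%, 28.3% and 28.3% of it in the cdc5 libraries and 32.9%, 33.8% and 30.5% in the Col-0 libraries. The share was lower in every cdc5 library than in every Col-0 library. Of the 6, 4 fell in cdc5, AT1G07323.1 rose slightly, and AT2G24592.1 did not pass the test. AT2G24592.1 had 17.6, 16.6 and 17.6 FPKM in cdc5 and 18.1, 18.1 and 14.3 FPKM in Col-0 (log2 fold change 0.04, SE 0.10, limma adjusted p = 0.78), and it lies 140 bases downstream of RSZ22A, a serine/arginine-rich splicing factor that rose in cdc5 (81.3 ± 5.55 FPKM in cdc5 and 56.8 ± 2.21 FPKM in Col-0, log2 fold change 0.51, limma adjusted p = 8.3e-05).

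Of the 837, 76 reached a mean of 1 FPKM and could be tested transcript by transcript, with limma on log2(FPKM + 1) across all 27441 transcripts of that level. In cdc5, 7 rose (9.21%) and 10 fell (13.2%). Among all tested transcripts 17.8% rose and 13.2% fell, 31.0% in either direction, so that the share of intergenic lncRNAs that passed, 22.4%, was below that of the table, through the higher calls. Under cyclic loess scaling the split became 4 higher and 13 lower. Their median log2 fold change was -0.01, beside 0.07 over all tested transcripts, and under cyclic loess scaling it was -0.16, beside 0.01. Values of the 3 cdc5 libraries and of the 3 Col-0 libraries did not overlap for 28 of the 76 (36.8%), against 49.2% of all tested transcripts. Of the 17 that passed, 7 changed by 2-fold or more. The corresponding share of all transcripts that passed is not given here, so this count describes the 17 only. All fold changes are on the log2(FPKM + 1) scale unless a ratio is named, and that scale understates the change of low RNAs.

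The lncRNAs that overlap another gene stood apart from these figures, with 116 of 419 tested higher in cdc5 (27.7%) and 16 lower (3.82%), and the median of their log2 fold changes was 0.28. The corresponding counts under cyclic loess scaling were 87 and 27. Protein-coding transcripts without overlap had 17.4% higher and 13.4% lower, with a median of 0.06. At 1 FPKM or more, the SD between libraries of 1 genotype had a median of 0.23 on the log2 scale for intergenic and 0.23 for overlapping lncRNAs, and 0.17 for the protein-coding transcripts. The difference between classes of transcripts was not tested.

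**Figure D2:**
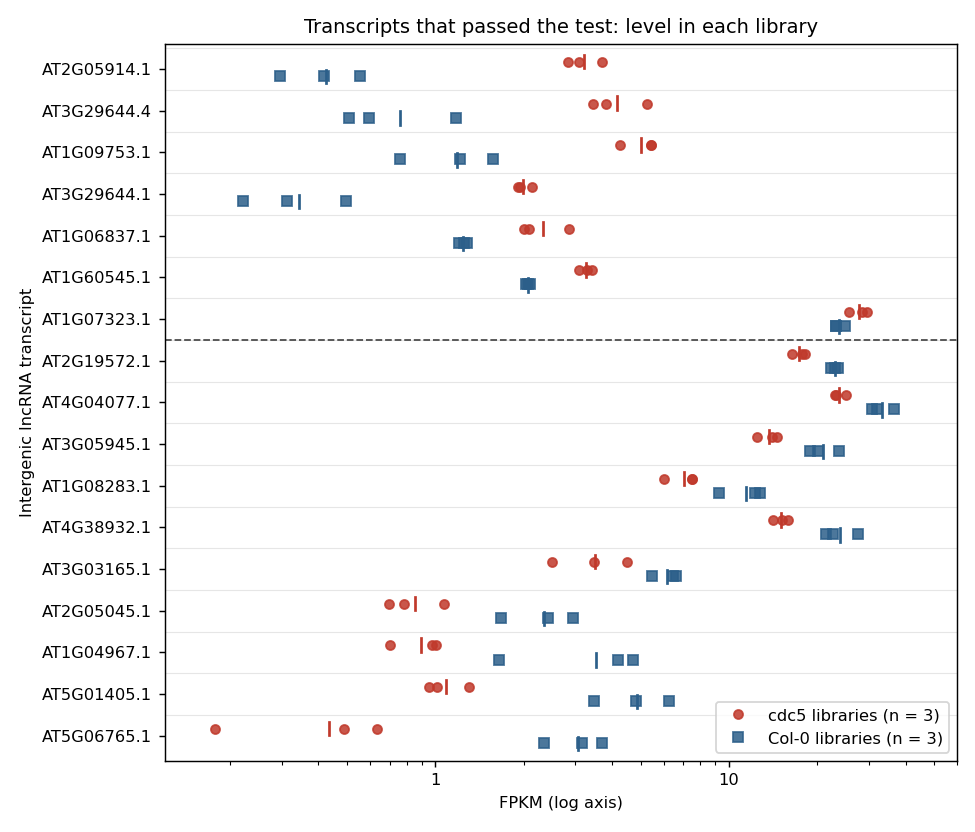
FPKM (horizontal axis, log scale) of the 17 intergenic lncRNA transcripts that passed the test, with the 3 cdc5 libraries as circles and the 3 Col-0 libraries as squares, and a vertical bar at each mean. The 7 transcripts above the dashed line were higher and the 10 below it lower in cdc5, and in each of the 17 the libraries of the genotypes do not overlap.

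Of the 76 tested transcripts the one that fell furthest was AT5G06765.1, the 280-base RNA printed above. It had 0.636, 0.178 and 0.491 FPKM in cdc5 and 3.69, 2.36 and 3.15 FPKM in Col-0 (log2 fold change -1.50, SE 0.21, limma adjusted p = 0.0053). The cdc5 values correspond to about 4.5, 1.3 and 2.7 fragments and the Col-0 values to about 24.6, 12.7 and 20.1, so the size of the drop is loosely set. It ends 418 bases from the end of ATG7, which codes for the activating enzyme of autophagy. ATG7 moved the other way, with 11.5 ± 0.981 FPKM in cdc5 and 7.97 ± 0.744 FPKM in Col-0 (log2 fold change 0.48, limma adjusted p = 0.0013).

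AT5G01405.1 (chr5:2365690-2366191, plus strand) fell to nearly the same degree, with 1.01, 1.3 and 0.950 FPKM in cdc5 and 3.48, 6.25 and 4.81 FPKM in Col-0 (log2 fold change -1.46, SE 0.21, limma adjusted p = 0.0056). Its start faces that of AT5G07475, a gene of the cupredoxin superfamily of copper proteins on the minus strand, across 84 bases. AT5G07475 fell too, with 9.44 ± 0.964 FPKM in cdc5 and 15.5 ± 0.151 FPKM in Col-0 (log2 fold change -0.66, limma adjusted p = 8.4e-05). The gap between the facing starts, chr5:2365606-2365689 in TAIR10.1, is printed because it is all the sequence between the divergent pair. The strand shown is the plus strand, the direction of the lncRNA, and the capitals mark TTTATA, the letters TATAAA on the strand of AT5G07475.
Gap between AT5G07475 and AT5G01405: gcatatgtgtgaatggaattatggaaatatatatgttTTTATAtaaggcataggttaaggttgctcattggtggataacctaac

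AT1G04967.1 (chr1:4338942-4339323, minus strand) had 0.703, 1.01 and 0.975 FPKM in cdc5 and 1.65, 4.18 and 4.73 FPKM in Col-0 (log2 fold change -1.18, SE 0.32, limma adjusted p = 0.044). The first Col-0 library was much nearer to the cdc5 values than the others, and the call was lost when any library but that one was left out, with adjusted p up to 0.12 over all alternatives. The other short RNA printed above, AT2G05045.1, had 0.783, 0.698 and 1.07 FPKM in cdc5 and 2.96, 2.41 and 1.68 FPKM in Col-0 (log2 fold change -0.84, SE 0.20, limma adjusted p = 0.028). It has 1 near copy elsewhere in the genome, between which reads may be shared, and its call was lost after adjustment for length and GC content (adjusted p = 0.063) and without several single libraries. AT3G03165.1 (chr3:5380310-5380726, minus strand) had 3.46, 2.50 and 4.50 FPKM in cdc5 and 5.49, 6.46 and 6.58 FPKM in Col-0 (log2 fold change -0.70, SE 0.19, limma adjusted p = 0.041, up to 0.11 over the alternatives).

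The other lower RNAs were better covered and changed less. AT4G38932.1 (chr4:18151827-18152597, minus strand) had 15.8, 14.1 and 15.2 FPKM in cdc5 and 21.5, 27.6 and 22.6 FPKM in Col-0 (log2 fold change -0.63, SE 0.10, limma adjusted p = 0.0088). It is packed between AT4G38930, whose end lies 33 bases away, and AT4G38940, an F-box/kelch-repeat gene whose start lies 94 bases away. AT4G38930 rose slightly, at 25.5 ± 0.458 FPKM in cdc5 and 23.2 ± 0.994 FPKM in Col-0 (log2 fold change 0.13, limma adjusted p = 0.038), and AT4G38940 stood at 4.35 ± 0.660 FPKM in cdc5 and 5.28 ± 0.0986 FPKM in Col-0 (log2 fold change -0.24, limma adjusted p = 0.062). AT1G08283.1 (chr1:22076533-22077068, minus strand) had 7.49, 7.51 and 6.03 FPKM in cdc5 and 9.23, 12.8 and 12.2 FPKM in Col-0 (log2 fold change -0.63, SE 0.15, limma adjusted p = 0.027, up to 0.084 over the alternatives). The gene that ends 1601 bases from it, 5MMP, a matrix metalloproteinase, fell as well, with 3.81 ± 0.528 FPKM in cdc5 and 6.78 ± 0.398 FPKM in Col-0 (log2 fold change -0.70, limma adjusted p = 3.3e-04).

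AT3G05945.1 (chr3:11510090-11510510, minus strand) had 12.4, 14.1 and 14.6 FPKM in cdc5 and 18.9, 23.8 and 20.2 FPKM in Col-0 (log2 fold change -0.58, SE 0.10, limma adjusted p = 0.011). It is the RNA with the shortest ATG-to-stop run of the 17, at 6 codons. AT4G04077.1 (chr4:1961126-1961951, plus strand), the most abundant of all intergenic lncRNAs, had 23.2, 22.9 and 25.1 FPKM in cdc5 and 31.9, 36.6 and 30.8 FPKM in Col-0 (log2 fold change -0.46, SE 0.076, limma adjusted p = 0.0088). RefSeq describes it as a natural antisense transcript of AT4G04078, a gene for a small protein that was not analysed here. AT2G19572.1 (chr2:8470244-8471815, plus strand) had 18.1, 17.7 and 16.3 FPKM in cdc5 and 22.2, 23.1 and 23.4 FPKM in Col-0 (log2 fold change -0.38, SE 0.051, limma adjusted p = 0.0047). On the opposite strand lies CDA1, the gene for cytidine deaminase, which was not analysed here.

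Of the 76 tested transcripts the largest increase was that of AT2G05914.1 (chr2:2263124-2264543, minus strand), a single-exon RNA of 1420 bases. It had 2.84, 3.10 and 3.71 FPKM in cdc5 and 0.418, 0.556 and 0.296 FPKM in Col-0, a 7.59-fold ratio of mean FPKM (log2 fold change on the log2(FPKM + 1) scale 1.56, SE 0.16, limma adjusted p = 0.0020). It holds the longest ATG-to-stop run of the 17, at 141 codons, and lies opposite AT2G05915, a gene for an uncharacterized protein that was not analysed here. Of its flanking genes, SBT1.8, a subtilisin-like protease 4771 bases upstream, stood at 103.7 ± 2.57 FPKM in cdc5 and 91.4 ± 1.33 FPKM in Col-0 (log2 fold change 0.18, limma adjusted p = 0.0019). The nearer AT2G05910, 3490 bases downstream, stood at 1.45 ± 0.236 FPKM in cdc5 and 1.145 ± 0.295 FPKM in Col-0 and did not pass the test (log2 fold change 0.20, limma adjusted p = 0.26).

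AT3G29644 was next, a spliced gene with 5 listed transcripts that lies opposite the pseudogene AT3G29642 (chr3:11498879-11501419, minus strand). Its transcripts summed to 7.25, 7.91 and 9.62 FPKM in cdc5 and to 1.06, 1.86 and 1.34 FPKM in Col-0 (gene level log2 fold change 1.94, SE 0.14, limma adjusted p = 1.0e-05). The gene level log2 fold change of AT2G05914 was 1.60, so the order of these 2 genes is the other way round at gene level. The transcript with 3 exons, AT3G29644.4, had 3.43, 3.83 and 5.25 FPKM in cdc5 and 0.510, 1.18 and 0.596 FPKM in Col-0 (log2 fold change 1.56, SE 0.22, limma adjusted p = 0.0052). The transcript with 4 exons, AT3G29644.1, had 2.13, 1.94 and 1.92 FPKM in cdc5 and 0.495, 0.221 and 0.314 FPKM in Col-0 (log2 fold change 1.16, SE 0.17, limma adjusted p = 0.0057). All 5 transcripts were higher in each cdc5 library than in any Col-0 library. The share of AT3G29644.4 in the gene was 47.4%, 48.4% and 54.6% in cdc5 and 48.1%, 63.4% and 44.5% in Col-0, so that the genotypes overlapped in it. The next gene along, 8670 bases away, is AT3G05945, whose RNA fell, so that neighbouring intergenic lncRNAs on the same strand moved in opposite directions.

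**Figure D3:**
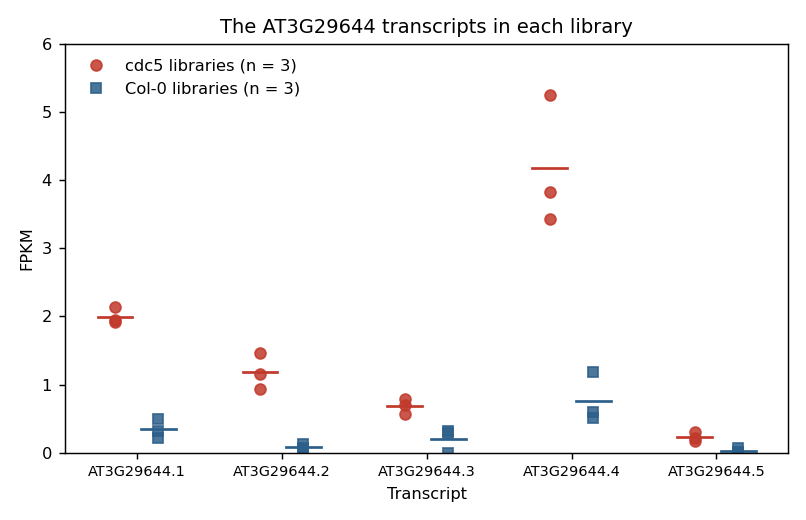
FPKM (vertical axis) of the 5 transcripts of AT3G29644 in the 3 cdc5 libraries (circles) and the 3 Col-0 libraries (squares), with a horizontal bar at each mean. Each transcript is higher in every cdc5 library than in any Col-0 library, and AT3G29644.4 is the most abundant in both genotypes.

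AT1G09753.1, printed whole above, had 4.24, 5.43 and 5.43 FPKM in cdc5 and 1.22, 0.756 and 1.57 FPKM in Col-0 (log2 fold change 1.48, SE 0.19, limma adjusted p = 0.0039). It lies opposite another RNA gene, AT1G09945, which was not analysed here, and between AT1G77710, the ubiquitin-fold modifier 1 gene 736 bases upstream, and PPK1, a putative protein kinase gene 1368 bases downstream. Those genes differed in direction. AT1G77710 stood at 82.2 ± 4.70 FPKM in cdc5 and 100.7 ± 6.58 FPKM in Col-0 (log2 fold change -0.29, limma adjusted p = 0.0025), and PPK1 at 7.36 ± 0.337 FPKM in cdc5 and 5.49 ± 0.373 FPKM in Col-0 (log2 fold change 0.37, limma adjusted p = 0.0026).

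The remaining increases were smaller and less stable. AT1G06837.1 (chr1:12923005-12923585, plus strand), with 1 near copy elsewhere, had 2.09, 2.86 and 2.01 FPKM in cdc5 and 1.26, 1.20 and 1.28 FPKM in Col-0 (log2 fold change 0.55, SE 0.15, limma adjusted p = 0.042). AT1G60545.1 (chr1:22302306-22305242, plus strand), which runs opposite the transcribed pseudogene DRP4B, had 3.28, 3.09 and 3.42 FPKM in cdc5 and 2.04, 2.06 and 2.11 FPKM in Col-0 (log2 fold change 0.47, SE 0.10, limma adjusted p = 0.022). Both calls were lost when any 1 library was left out and under cyclic loess scaling (adjusted p = 0.11 and 0.052). AT1G07323.1 (chr1:17295588-17296007, minus strand), the second most abundant, had 29.5, 25.6 and 28.5 FPKM in cdc5 and 23.1, 24.8 and 23.2 FPKM in Col-0. Its change was 0.22 on the log2 scale (SE 0.064, limma adjusted p = 0.049, up to 0.13 over the alternatives).

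The RNAs that rose and those that fell differed in what RefSeq places over them. Of the 41 tested intergenic lncRNAs over a RefSeq gene outside the table, 6 rose (14.6%) and 2 fell (4.88%), with a median log2 fold change of 0.10. The 6 include AT3G29644.1 and AT3G29644.4, transcripts of 1 gene. Of the 35 with no such gene, 1 rose (AT1G07323.1, 2.86%) and 8 fell (22.9%), with a median of -0.21. Among all tested transcripts 17.8% rose and 13.2% fell. The share that rose among the 41 was thus not above that of the table. Among these 76 transcripts, every higher call of more than 0.3 on the log2 scale came from a place where another annotated gene lies over the lncRNA. Reads of that gene cannot be told from those of the lncRNA without knowing how strand was used. The split was seen in these data and then counted, and the difference between these sets was not tested. By structure, the 55 tested RNAs of a single exon had 4 higher (7.27%) and 10 lower (18.2%), and the 21 spliced ones 3 higher (14.3%) and 0 lower. All tested transcripts had 11.0% higher and 26.0% lower among those of a single exon and 18.8% higher and 11.3% lower among spliced ones. The difference between the exon classes was not tested.

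**Figure D4:**
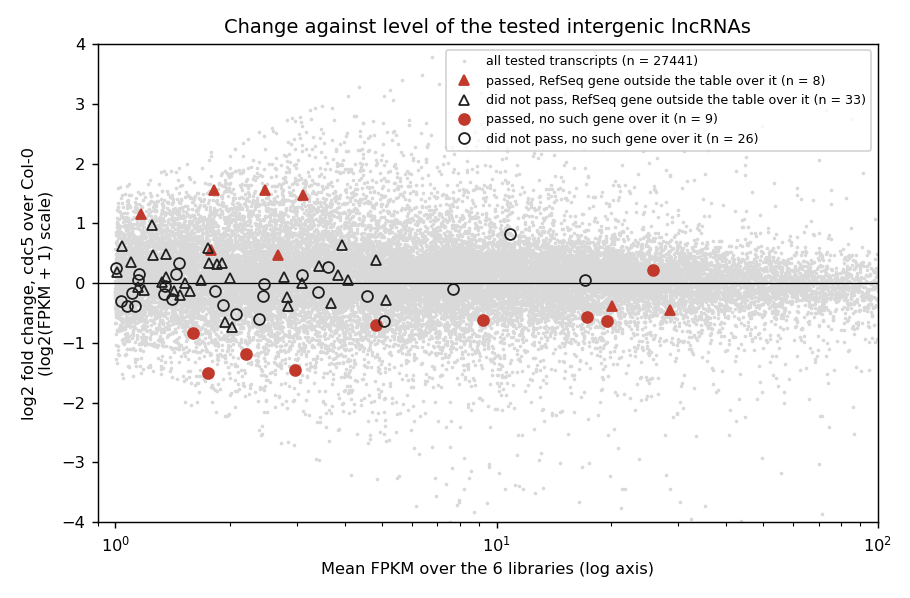
Log2 fold change of cdc5 over Col-0 (vertical axis, log2(FPKM + 1) scale) against mean FPKM (horizontal axis, log scale) of the 76 tested intergenic lncRNA transcripts, over all 27441 tested transcripts in grey, of which 1057 lie outside the axes. Filled symbols passed the test: 6 of the 8 filled triangles, with a RefSeq gene outside the table over them, lie above 0, and 8 of the 9 filled circles, with none, lie below it.

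Summing the transcripts of each gene widened the calls, here and over the table. The sums take every transcript of a gene, and 8 of the 775 genes also have transcripts that are not among the 837. Of 78 intergenic lncRNA genes that could be tested, 13 rose (16.7%) and 17 fell (21.8%), against 33.3% and 22.4% of all 19778 genes tested, 55.8% in either direction. All 16 genes with a called transcript were called, and 14 more were called at gene level only. Of these 14, which were chosen after their values were seen, the largest decreases were AT1G06265 (log2 fold change -0.68) and AT4G28162 (-0.67), and the largest increase AT1G06727 (0.97). The only AT1G06265 transcript counted as intergenic, AT1G06265.2, had a log2 fold change of -0.37 and did not pass the test by itself.

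Most intergenic lncRNAs lay under the 1 FPKM limit, so a lower limit of 0.25 FPKM with a pseudocount of 0.1 was also used. It tested 233 of the 837 and gave 16 higher (6.87%) and 14 lower (6.01%), against 14.0% and 9.93% of all transcripts at that limit. Of these, 10 of the 16 and 5 of the 14 had a mean under 1 FPKM. A RefSeq gene outside the table lies over 11 of the 16 and 5 of the 14, so that at this limit 5 of the higher calls have none. The following were chosen from them after their values were seen. AT4G05660.1 (chr4:5700720-5701278, minus strand) had 0.144, 0.141 and 0.271 FPKM in cdc5 and 0.899, 1.47 and 1.01 FPKM in Col-0, or about 2, 2 and 3 fragments in cdc5 and 12, 15.8 and 12.9 in Col-0 (log2 fold change -2.11, limma adjusted p = 0.012). AT4G09240.1 (chr4:17026947-17027678, minus strand), a spliced RNA, had 1.31, 1.19 and 1.48 FPKM in cdc5 and 0.204, 0.214 and 0 FPKM in Col-0 (log2 fold change 2.75, limma adjusted p = 0.019). Neither lies over a RefSeq gene outside the table.

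A few RNAs were detected in all libraries of 1 genotype and in none of the other. Of the 837, 10 (1.19%) were above 0 in all 3 cdc5 libraries while every Col-0 library had them at 0, beside 0.69% of all 45666 transcripts, and 5 (0.597%) showed the reverse, beside 0.374%. The difference between these shares was not tested. The single one of these with a mean of at least 1 FPKM in a genotype was AT3G27990.1, a transcript of 8 exons (chr3:10392571-10398221, minus strand) with 0.980, 0.693 and 2.32 FPKM in cdc5 and 0 in each Col-0 library. Its gene as a whole did not pass the test, at 5.29, 5.36 and 5.05 FPKM in cdc5 and 5.70, 5.09 and 5.49 FPKM in Col-0 (log2 fold change -0.04, limma adjusted p = 0.64). Another transcript of the gene, AT3G27990.4, held 69.9%, 57.6% and 52.0% of the gene in cdc5 and 80.9%, 72.8% and 78.5% in Col-0, so the genotypes differed in how fragments were divided among transcripts of 1 gene. That division was made upstream of the deposited values and was not checked against reads here.

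Such divisions also moved between libraries of 1 genotype. AT4G28162.2 took 31.6%, 40.4% and 77.1% of its gene in the cdc5 libraries and 64.1%, 57.4% and 0% in the Col-0 libraries, although the gene as a whole fell in cdc5 (2.78, 2.90 and 1.67 FPKM in cdc5, 4.80, 4.30 and 4.17 FPKM in Col-0, log2 fold change -0.67, limma adjusted p = 0.0042). AT1G29785.3, described by RefSeq as a natural antisense transcript and chosen after its values were seen, had 10.9, 10.9 and 10.8 FPKM in cdc5 and 0.0247, 15.8 and 16.6 FPKM in Col-0. The first Col-0 library alone was near 0, the cdc5 values lay under both others, and no call could be made (limma adjusted p = 0.63).

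Intergenic lncRNAs stood close to protein-coding genes of the table, at a median of 622 bases from the nearest. Genes outside the table were left out of this pairing, so the 59 lncRNAs over such a protein-coding gene were paired with a farther one. AT2G19572.1, for example, was paired with TET2 at 318 bases, although CDA1 lies opposite it. In what follows, nearest means nearest among the genes of the table. The pair was head to head in 31.8% of cases, with facing starts, and tail to tail in 28.3%, while the gene lay downstream on the same strand in 22.6% and upstream in 17.3%. AT5G09955.1 and AT5G09965.1 were given no nearest gene but are still counted in these shares, as tail to tail and head to head. Among the 55 tested lncRNAs whose nearest protein-coding gene was also tested, 33 moved in the same direction as that gene, with a Pearson correlation of the log2 fold changes of 0.19 across pairs, given as a description. The 17 head-to-head pairs had a correlation of 0.55, but without the 2 pairs whose gene changes lay farthest from the median it was -0.06, so it rested on those pairs. The tail-to-tail pairs (n = 15) had 0.01, pairs with the gene downstream on the same strand (n = 12) had 0.33, and pairs with it upstream (n = 11) had -0.14. Pairs up to 1 kilobase apart (n = 37) had 0.07 and pairs farther apart (n = 18) had 0.34, which became 0.57 without the 2 pairs farthest from the median. Of the 14 called lncRNAs with a tested nearest gene, 8 shared its direction. These pairs share libraries, and genes are not independent replicates.

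**Figure D5:**
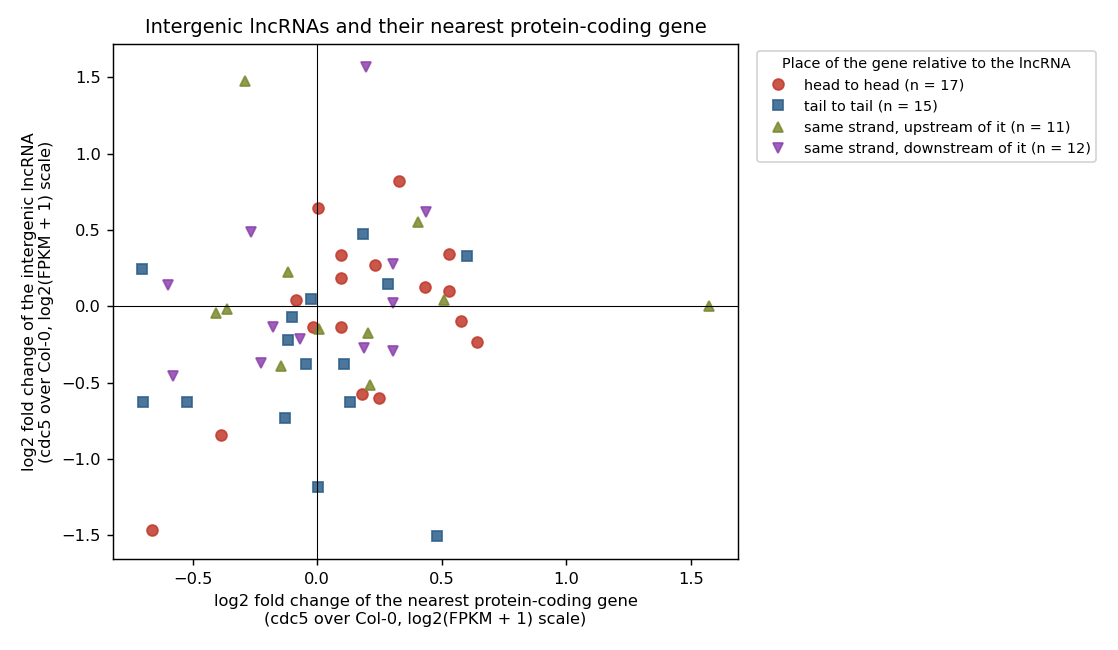
Log2 fold change of 55 tested intergenic lncRNAs (vertical axis) against that of the nearest protein-coding gene of the table (horizontal axis), both cdc5 over Col-0 on the log2(FPKM + 1) scale, with symbols for the place of the gene relative to the lncRNA. The points lie on all sides of the axes, with 33 of 55 of the same sign, and the lowest head-to-head point is AT5G01405.1 with AT5G07475.

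The window from 250 bases before to 50 bases after the start of each gene was searched on both strands for 3 motifs. CTCAGCG, the letters reported to be bound by CDC5, was in 0 of the 6 genes that rose and 0 of the 10 that fell, in 10 of all 775 intergenic lncRNA genes (1.29%) and in 142 of all 27696 nuclear genes of the table (0.513%). TATAAA was in 3 of the 6 and 5 of the 10, beside 46.7% of all intergenic lncRNA genes and 50.8% of all genes. AAACCCTA, the telo-box of genes for the translation machinery, was in 2 of the 6 and 1 of the 10, beside 11.9% of the 67 tested intergenic lncRNA genes, 5.03% of all intergenic lncRNA genes and 6.42% of all genes. The windows of AT3G29644 and AT1G09753, both higher in cdc5, are printed because they hold both TATAAA and AAACCCTA, with either motif on either strand in capitals. Each is 300 bases in TAIR10.1, AT3G29644 from the minus strand at chr3:11501370-11501669 and AT1G09753 from the plus strand at chr1:29208632-29208931, where the second AAACCCTA match overlaps a TATAAA match.
AT3G29644 promoter: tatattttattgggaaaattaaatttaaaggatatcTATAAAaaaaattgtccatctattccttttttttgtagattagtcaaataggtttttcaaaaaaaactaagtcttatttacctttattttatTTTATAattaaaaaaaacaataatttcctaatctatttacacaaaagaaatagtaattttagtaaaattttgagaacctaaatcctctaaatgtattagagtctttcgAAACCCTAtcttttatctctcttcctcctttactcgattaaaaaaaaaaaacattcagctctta
AT1G09753 promoter: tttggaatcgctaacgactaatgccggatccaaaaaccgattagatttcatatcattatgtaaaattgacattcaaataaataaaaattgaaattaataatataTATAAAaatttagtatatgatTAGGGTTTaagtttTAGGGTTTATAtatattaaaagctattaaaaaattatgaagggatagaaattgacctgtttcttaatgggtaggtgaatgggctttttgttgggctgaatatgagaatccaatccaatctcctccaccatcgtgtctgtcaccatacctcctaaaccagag
At the other end, AATAAA, the letters of the polyadenylation signal, stood in the last 50 bases of 17 of the 837 intergenic lncRNAs (2.03%), 1 of the 17 called ones, and 9.83% of protein-coding transcripts without overlap. A match is a description of letters and not of a bound site.

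In the authors' deposited table, 48 of the 837 (5.73%) are marked as significant, 26 higher (3.11%) and 22 lower (2.63%), against 12.2%, 7.37% and 4.82% of all transcripts. Of the 48 marked in the authors' deposited table, 40 had a mean under 1 FPKM, and the 8 that could be tested with limma here were all called. The other 9 called here are not marked in the authors' deposited table, and the largest log2 fold change among these 9 was -0.70, in AT3G03165.1. Of the 48, those marked higher have ratios of at least 2.03 and those marked lower have ratios of at most 0.362. The mark may thus carry a limit on the ratio that the calls here do not have. In the authors' deposited table the ratio of AT2G05914.1 is 7.59 with a q-value of 1.59e-20, and that of AT5G06765.1 is 0.142 with a q-value of 6.18e-07.

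None of the intergenic lncRNAs is among 19 well-described Arabidopsis noncoding RNAs that were looked up, such as the TAS precursors of small RNAs and the phosphate-starvation decoys. Of the 18 that are in the table, 3 are typed lncRNA and overlap another gene, 11 are typed ncRNA and 4 are typed as protein-coding or small nucleolar RNA. Genes that act on noncoding RNA were themselves mostly higher in cdc5. Besides genes of processing and decay, the list holds producers of small RNAs and subunits of RNA polymerases IV and V, which transcribe noncoding RNA. Of 23 tested at gene level, 16 rose and 3 fell, beside 33.3% higher and 22.4% lower among all genes, with a median log2 fold change of 0.28 beside 0.06 (14 and 3 under cyclic loess scaling, median 0.17 beside 0.01). MTR4, the helicase of the nuclear exosome, had 19.3 ± 0.298 FPKM in cdc5 and 13.9 ± 0.293 FPKM in Col-0 (log2 fold change 0.44, limma adjusted p = 7.5e-05). RRP6L2, an exosome-associated nuclease, had 31.4 ± 0.281 FPKM in cdc5 and 22.5 ± 1.35 FPKM in Col-0, and CBP80, the large subunit of the nuclear cap-binding complex, had 28.0 ± 1.18 FPKM in cdc5 and 19.8 ± 0.400 FPKM in Col-0 (limma adjusted p = 9.3e-05 and 5.5e-05). The 3 that fell were XRN3, a nuclear exoribonuclease (log2 fold change -0.24), AGO1, the main microRNA effector (-0.22), and DCL3, which makes the small RNAs of DNA methylation (-0.21). Of the 10 tested genes of the phosphate starvation response, 7 rose and 0 fell, with a median log2 fold change of 0.27.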

How the data were processed

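RNA with a poly(A) tail was purified on oligo(dT) beads, and second-strand cDNA carried dUTP before paired-end sequencing, per the labels' protocols. Tools named in the submitters' processing notes are StringTie 1.3.4d, HISAT2 2.0.4, cutadapt 1.9, edgeR and DESeq2, with no role stated. A mouse genome build named there cannot apply here. The authors deposited a transcript table with an FPKM value per transcript and library, and with their own ratio (fold change), log2 ratio, p-value and q-value per transcript. The deposited columns were used as they stand, and the authors' test is not named in the sources used here. Spans and lengths of 44885 of the 45666 rows (98.3%) equalled those of the TAIR10.1 RefSeq annotation, from which sequences were read.

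The table holds no counts. An estimate of depth came from the spacing of low FPKM values in single-transcript genes of at least 600 bases, searched between 15 and 35 M fragments. Of these low values 61.0% to 64.5% lay within 0.1 of a whole number of fragments, where 20% would without a fit, so counts were not recovered. Fragment numbers in the text are estimates, and the floor of 3 fragments covers counting error only.

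Transcripts averaging 1 FPKM or more were compared with limma 3.58.1 (in R 4.3.3, tables read by data.table, version 1.17.8), on the scale log2(FPKM + 1), with trend and robust moderation and a Benjamini-Hochberg adjusted p under 0.05 over the whole table, and genes likewise on summed FPKM. Every adjusted p comes from limma. Summed values per library were compared by an exact permutation test. Alternatives were another pseudocount, other filters, cyclic loess scaling, adjustment for length and GC content, a replicate block, gene sums, leaving out each library, a minimum distance to other genes, and leaving out lncRNAs over RefSeq genes outside the table. Near copies are matches by blastn 2.17.0 of at least 90% identity over at least 50% of the length, and 62 of the 837 (7.41%) had one. Other steps used matplotlib 3.10.9, pandas 2.3.3, numpy 2.4.6 and Python 3.11.15.

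Named lncRNAs are up to 12 of the highest and 12 of the lowest changes among those that passed, the 6 most abundant, any on a list of described noncoding RNAs, and any listed at 0 in 1 genotype with at least 1 FPKM in the other. The flanking protein-coding genes of the table were read for each, but only some are given above. Those left out include genes that passed the test, such as AT3G15900 beside AT3G03165.1 (log2 fold change -0.62) and EER5 beside AT2G19572.1 (0.45). The intergenic lncRNAs, gene lists and marker lists were chosen with earlier results of these data known. Root markers (1 of 3 in the table) and seed markers (3 of 3) stayed under 0.5 FPKM in sum in every library.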

Additional observations from a re-analysis of the deposited data

How the results depend on the processing

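The counts of intergenic lncRNAs that rose (7) and fell (10) depended on the filter and on the unit tested. They were 22 and 16 with no filter on low values, 1 and 5 with a filter at 5 FPKM, 16 and 14 with a filter at 0.25 FPKM and a pseudocount of 0.1, and 13 and 17 for genes in place of transcripts. Cyclic loess scaling gave 4 and 13. It also moved the 20051 tested protein-coding transcripts without overlap, from 3497 higher and 2690 lower to 3055 and 2884. Leaving out each library in turn gave 4 to 5 higher and 6 to 9 lower. Keeping only lncRNAs at least 500 bases from every other gene left 7 and 5, and leaving out those over a RefSeq gene outside the table, an alternative chosen after seeing the data, left 1 and 8. These last settings only drop RNAs from the count. Same-numbered libraries did not deviate together (correlations -0.00213, -0.0125 and 0.0167), so the numbers do not pair them, and a fit with the replicate block gave 4 higher and 5 lower. The cause of the other shifts was not tested. A change of filter also changes the number tested. For the fits with no filter, at 5 FPKM, with the block or without a library, the share called over all transcripts is not given here. The counts from those fits therefore do not set the intergenic lncRNAs apart from the whole table.

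Of the 17 called RNAs, 9 kept their call in every alternative that could be fitted: AT1G09753.1, AT2G05914.1, AT2G19572.1, AT3G05945.1, AT3G29644.1, AT3G29644.4, AT4G04077.1, AT5G01405.1 and AT5G06765.1. AT4G38932.1 lost it under the block alone (adjusted p = 0.051). Over the 17 RNAs and their alternatives, 171 of 227 values kept direction and call, 56 kept the direction without the call, and 0 changed direction. The log2 difference in summed FPKM (-0.114) ran from -0.154 to -0.082 without each library, was -0.0335 at least 500 bases from every other gene, -0.24 without those over a RefSeq gene outside the table, and -0.0876 without the most abundant RNA. The difference in the number listed above 0 (-6.0) ran from -21.3 to 18.2 without each library, with 18.2 without cdc5 replicate 3 and 4.83 without Col-0 replicate 1, and it was 5.0 when at least 1 FPKM was required. The change of AT2G24592.1, which did not pass the test (0.0434), was -0.00979 under cyclic loess scaling and ran from -0.0633 to 0.098 without each library. Depth limits what can be said of intergenic lncRNAs under 1 FPKM.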
